A study of Mus musculus with 20 samples.

Results

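Assembly factors of cytochrome c oxidase, the last complex of the mitochondrial respiratory chain, are described here in ribosome footprints and total RNA of the mouse hippocampus. They were chosen by gene function and are Coa3, Coa5, Coa6, Coa7, Cox10, Cox11, Cox14, Cox16, Cox17 and Cox20, which make up 10 of the 18054 genes in the deposited count table. The choice used no threshold on a measured value, but it was made with the footprint, input and ratio values of these data known. Counts and medians over the 10 genes are therefore descriptions, and each test comes from a fit over all genes of the table.

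The study compared Qtrt1-/- mice with wild-type mice. Qtrt1 is the catalytic part of tRNA-guanine transglycosylase, which places queuosine at the wobble base of tRNAs that carry tyrosine, histidine, aspartate or asparagine. Each hippocampus gave 1 ribosome footprint library and 1 input RNA library from the same lysate, 20 libraries from 10 animals. The groups were 3 wild-type females and 3 Qtrt1-/- females aged 6 months and 21 or 22 days, and 2 wild-type males and 2 Qtrt1-/- males. In each male genotype, animal 1 was aged 6 months and 18 days and animal 2 was aged 5 months and 16 days, so sex and age cannot be told apart. The labels name no Cre driver, no promoter and no strain background for any group.

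Cytochrome c oxidase carries electrons from cytochrome c to oxygen. Its catalytic core is made inside the mitochondrion, while most other subunits, and all 10 assembly factors described here, are made on cytosolic ribosomes and imported. The factors act in steps: some hold newly made core subunits, some deliver copper, and some make or insert the heme group. Neurons depend on the enzyme for their energy, and inherited loss of single assembly factors causes disease of brain, heart, liver or nerve.

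The coding sequences of the 4 genes on which the results below turn are printed because queuosine tRNAs read particular codons. They were read 5′ to 3′ from GENCODE M21 transcripts on the mouse build GRCm38, with the stop codon left out, and capitals mark the in-frame codons read by queuosine tRNAs. These are AAC and AAT for asparagine, GAC and GAT for aspartate, CAC and CAT for histidine, and TAC and TAT for tyrosine. Of Coa3 and Cox20 the first 300 bases are shown, and Cox14 and Cox17 are shown whole. Coa3 lies on chromosome 11 from 101277968 to 101279114 on the minus strand, Cox14 on chromosome 15 from 99725618 to 99728136 on the plus strand, Cox17 on chromosome 16 from 38346991 to 38352763 on the plus strand, and Cox20 on chromosome 1 from 178319130 to 178322693 on the plus strand.
Coa3: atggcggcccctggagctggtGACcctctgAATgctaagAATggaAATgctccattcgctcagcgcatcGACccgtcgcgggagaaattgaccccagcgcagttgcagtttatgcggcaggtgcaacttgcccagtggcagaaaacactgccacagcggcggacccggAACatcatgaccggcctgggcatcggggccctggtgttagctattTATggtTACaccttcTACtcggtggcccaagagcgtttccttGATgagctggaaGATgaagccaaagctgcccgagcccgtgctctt
Cox14: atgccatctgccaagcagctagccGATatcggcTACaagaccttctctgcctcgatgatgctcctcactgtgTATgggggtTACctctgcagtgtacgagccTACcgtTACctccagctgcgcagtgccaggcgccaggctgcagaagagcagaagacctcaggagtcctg
Cox17: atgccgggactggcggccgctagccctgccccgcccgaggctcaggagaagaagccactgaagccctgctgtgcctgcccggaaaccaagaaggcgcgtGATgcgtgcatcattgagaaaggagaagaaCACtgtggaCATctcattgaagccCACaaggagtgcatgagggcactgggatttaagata
Cox20: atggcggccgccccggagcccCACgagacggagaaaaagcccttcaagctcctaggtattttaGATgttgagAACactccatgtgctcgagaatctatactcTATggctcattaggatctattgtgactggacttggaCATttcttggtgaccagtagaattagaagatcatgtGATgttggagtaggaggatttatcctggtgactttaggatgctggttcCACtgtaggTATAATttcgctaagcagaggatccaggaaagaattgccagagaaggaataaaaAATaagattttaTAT

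These reading frames are short. Cox14 has 57 codons, Cox17 has 63, Coa3 has 108 and Cox20 has 117, against a median of 446 codons over 17642 genes with a coding sequence. Marked codons made up 6.35% of Cox17 (4 codons), 10.2% of Coa3 (11 codons), 10.5% of Cox14 (6 codons) and 12.8% of Cox20 (15 codons). The median gene had 13.7%, so all 4 genes lay below it, and Cox17 stood at percentile 1.00. Among the other factors Coa7, a heme-binding assembly factor of the space between the mitochondrial membranes, had the largest share, 19.5% (45 of 231 codons, percentile 97.4). Coa5, Coa6, Cox10, Cox11 and Cox16 lay between 10.8% and 13.9%. Pairs of cysteine codons with 9 other codons between them have the spacing of the CX9C pattern of small copper and assembly proteins. Such pairs occurred 2 times in Coa5, 2 times in Cox17, 1 time in Coa6 and 1 time in Cox10. The count rests on spacing alone, so a pair by itself, as in the long Cox10, does not make a CX9C protein.

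Some of these sequences are not unique. All 28-base stretches of the Cox17 coding sequence also occur in Gm21987, an annotated gene that overlaps it on the same strand and held 0 footprints and 1 input read in the count table. Of the Cox20 stretches, 44.4% also occur in the copy Cox20b, which is not a row of the table, and 77.0% of those of Cox16 occur in Gm20498, which overlaps it on the same strand, with 8 footprints and 285 input reads. For Cox11 the share was 10.8%, over 7 copies, and for the other 6 genes it was 0. Values of Cox17, Cox20, Cox16 and, less so, Cox11 are therefore uncertain where reads were split between such genes. Exons of Cox20 overlap those of Hnrnpu on the opposite strand and exons of Coa3 those of Cntd1. Cox11 overlaps Tom1l1, Coa6 overlaps Tarbp1 and Cox10 overlaps 9630013K17Rik in the same way. Strand use in counting was not given in the sources used here. Reads of such partners cannot be told apart. Cntd1 held only 12 footprints and 35 input reads over all libraries, whereas Hnrnpu held 20931 footprints, Tom1l1 1538 and Tarbp1 382. 9630013K17Rik is not a row of the table.

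Footprint libraries held from 5357812 to 15517982 counted reads and input libraries from 9000662 to 13637370. Qtrt1 itself, the check of the labels, had 28 to 94 footprint reads in wild-type libraries and 1 to 10 in Qtrt1-/- libraries, with 66 to 88 and 24 to 29 input reads. All 13 markers listed for hippocampal neurons were detected in every library. Markers of neighbouring tissue differed among the females. The summed footprint level of 16 choroid plexus markers was 847 to 8822 counts-per-million (CPM) in wild-type females, 3969 to 14714 in Qtrt1-/- females and 13076 to 17955 in males. For 14 striatum markers it was 678 to 1530 CPM, 349 to 845 CPM and 333 to 384 CPM. None of these 30 markers was at 0 in any footprint library. In bulk tissue, fewer cells of a type and less RNA per cell cannot be told apart.

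Levels were compared between genes per length, as footprint CPM per kilobase of coding sequence and input CPM per kilobase of transcript, averaged over the 10 animals. Cox14 had the highest footprint level, 218 (percentile 95.0 of 13929 genes), then Coa3 with 145 (percentile 92.1), and Coa7 the lowest, 7.64 (percentile 36.9). In input, Coa3 was highest at 56.9 (percentile 91.6), and Coa7 was lowest at 1.18 (percentile 15.7). The 2 partners that hold newly made core subunit 1 therefore led both scales when reads were counted on the gene. The 4 copper factors spanned a wide range in footprints, from 44.2 for Coa6 and 26.6 for Cox11 to 10.9 for Cox17 and 8.72 for Cox16. Reads counted on a gene need not lie on its codons. In the deposited counts per codon, listed codons held 7.88% of the Coa3 footprint reads, 56.2% for Cox14 and 78.5% for Cox10. The median over 7623 genes was 11.6%, and Coa3 stood at percentile 46.5. The other 5 genes, Coa6, Coa7, Cox16, Cox17 and Cox20, besides Coa5 and Cox11, are not in that list of 3, and no codon of these 5 was listed. The places of Coa3 and of these 5 genes in footprints are thus uncertain as levels on coding sequence.

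The footprint-to-input ratio was then taken per animal as log2 footprint CPM minus log2 input CPM, with a prior count of 2. It ordered the genes from Cox14, 0.77 ± 0.14 (SD, n = 10 animals), through Cox10, 0.65 ± 0.19, Cox11, 0.32 ± 0.24, Coa7, 0.25 ± 0.40, and Cox20, 0.20 ± 0.60, to Coa3, −0.14 ± 0.52, Coa6, −0.23 ± 0.53, and Cox16, −0.59 ± 0.44. Cox17, −1.97 ± 0.87, and Coa5, −2.02 ± 0.26, stood far below, at percentiles 6.29 and 5.82 of 14146 genes. Neighbours in this order lay within 1 SD of the lower gene, except for the steps from Cox10 to Cox11 and from Cox16 to Cox17. Even there the animals' ranges touched, with the highest Cox17 animal at −0.97 and the lowest Cox16 animal at −1.03. Coa5 was steady across animals, from −2.39 to −1.70, whereas Cox17 ran from −3.40 to −0.97.

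**Figure D1:**
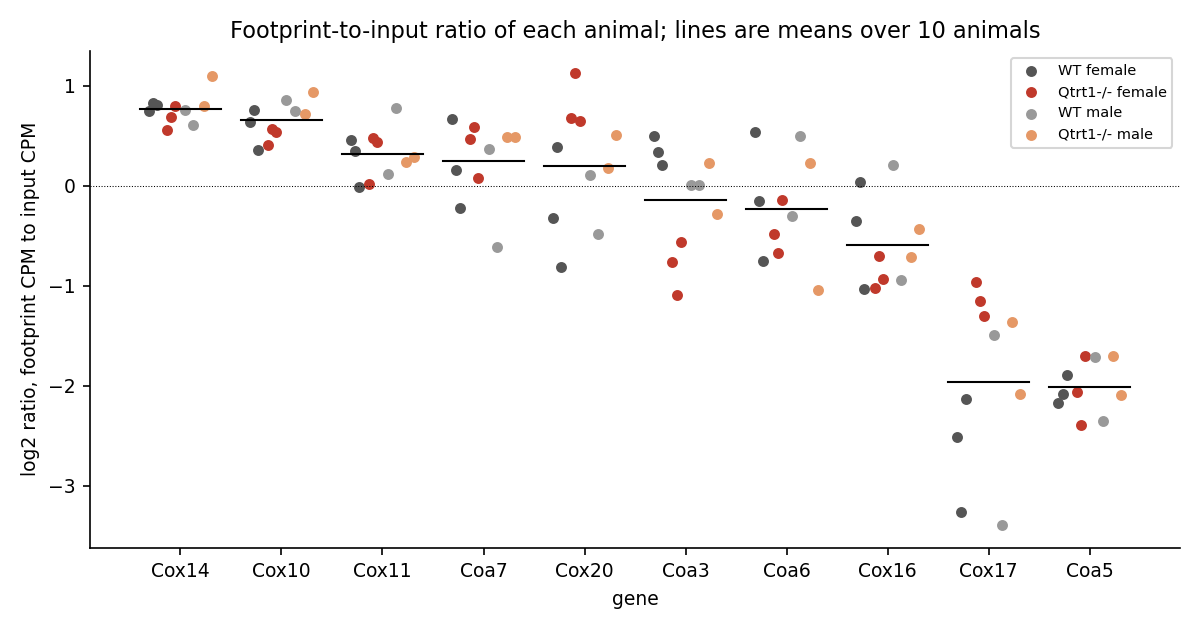
The log2 ratio of footprint CPM to input CPM of each gene (vertical axis) is shown for every animal (points, coloured by group), with the mean over 10 animals as a line and genes ordered by it. Cox14 is highest at 0.77, Cox17 and Coa5 are lowest near −2, and the groups separate in Coa3, Cox17 and Cox20 among females.

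The low place of Coa5 and Cox17 is a place in a library, not an absolute rate of translation. For the 10 genes the median ratio was 0.03, against −0.04 over all genes. For 22 other cytochrome oxidase assembly factors it was 0.09, and for 12 nuclear-encoded subunits of the enzyme −0.21. The order also depends on length: per kilobase, Cox17 stood at percentile 14.1 and Coa5 at percentile 81.0, with 3863 bases and 74 codons in the Coa5 transcript.

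The first question was whether loss of Qtrt1 changed these genes in females. A gene is called here when its adjusted p is under 0.05 in edgeR's quasi-likelihood test with Benjamini-Hochberg adjustment over all genes tested. In female footprints 2 of 10 genes were called, Coa3 lower and Cox20 higher, where 7.06% of all 13143 genes were called. In female input 1 of 10 was called, Coa3 higher, where 3.48% of all genes were called. In the female ratio 1 of 10 was called, Coa3 lower, where 0.0424% of all genes, 6 in number, were called. The median difference over the 10 genes was −0.09 in footprints and 0.10 in input on the log2 scale, beside 0.00 and 0.01 over all genes. Where groups are said below not to overlap, this is a description of a few animals. The share of all genes whose groups separate in this way was not counted.

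Coa3, which binds newly made core subunit 1 and keeps its synthesis going, had footprint levels of 61.8, 49.4 and 47.7 CPM in the 3 wild-type females. In the 3 Qtrt1-/- females they were 31.1, 27.0 and 33.8 CPM. Every Qtrt1-/- female lay below every wild-type female. Its input levels ran the other way, from 43.7, 39.0 and 41.4 CPM in wild type to 52.8, 57.8 and 50.1 CPM in Qtrt1-/- animals, again without overlap. Reads counted on the gene were thus fewer in footprint libraries and more in input libraries.

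The Coa3 footprint difference was −0.81 ± 0.15 (log2 fold change ± SE, edgeR adjusted p = 0.0117), a footprint level 0.571 times that of wild type. Its input difference was 0.37 ± 0.07 (edgeR adjusted p = 0.0244), a 1.29-fold level. The ratio fell by 1.16 ± 0.17 on the log2 scale (edgeR adjusted p = 0.0111), the second lowest p of 14146 genes, and with the animal as a block its edgeR adjusted p was 6.16e-04.

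**Figure D2:**
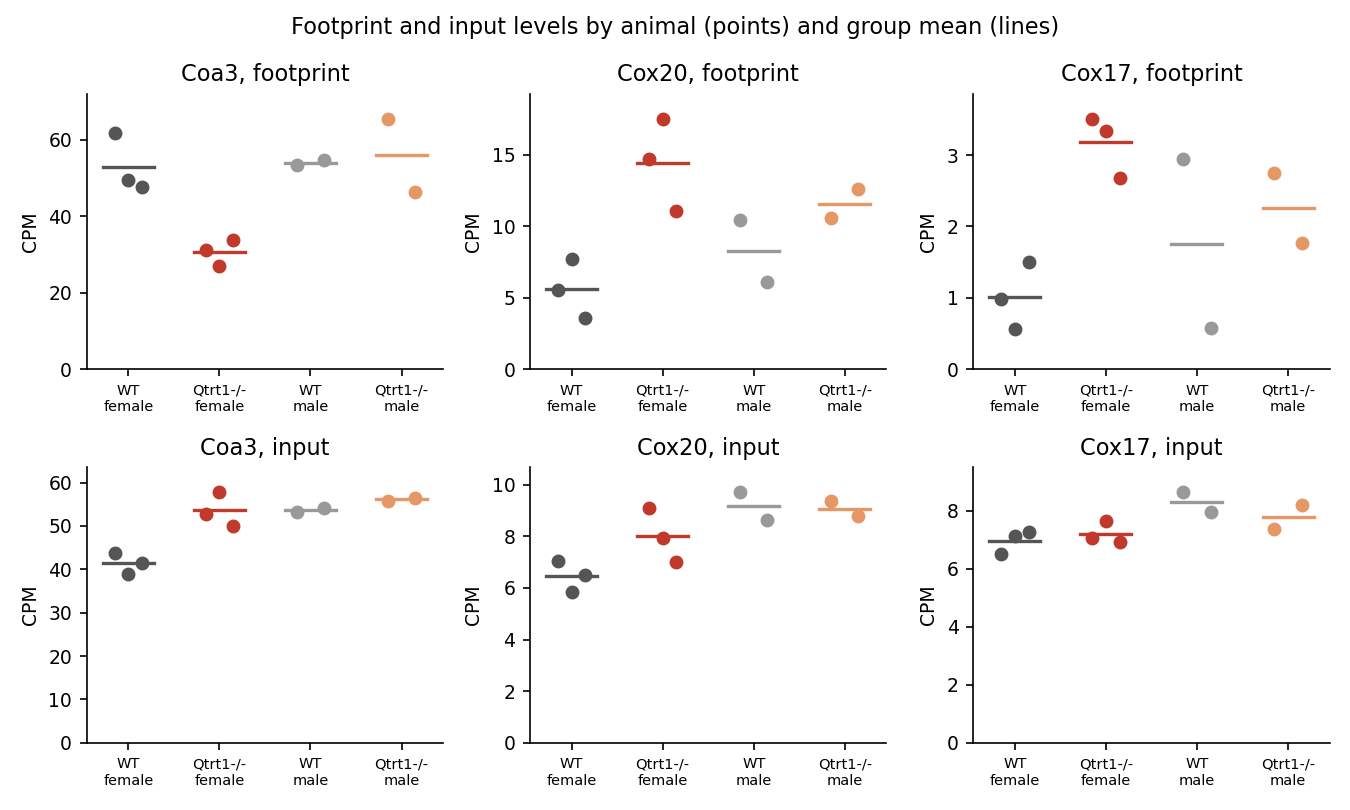
Footprint level (top row, CPM) and input level (bottom row, CPM) of Coa3, Cox20 and Cox17 in each animal (points), with group means as lines and wild type and Qtrt1-/- side by side within each sex. Qtrt1-/- females sit below wild-type females for Coa3 footprints (27.0 to 33.8 against 47.7 to 61.8 CPM) and above them for Cox20 and Cox17 footprints.

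The Coa3 difference came from reads counted on the gene, and the few footprints placed on its codons did not show it. The deposited codon tables list footprints per codon from codon 15 on, counted from 0 at the start codon, and held 7.88% of the Coa3 gene count, 275 of 3489 reads (median of 7623 genes, 11.6%). Per library these were 20, 24 and 27 footprints in wild-type females and 33, 35 and 26 in Qtrt1-/- females. As CPM of the footprints listed in each library, these were 15.4, 21.1 and 18.8 against 20.0, 23.2 and 15.2, and the groups overlapped. With codon footprints in place of gene counts, the female difference of Coa3 was 0.07 ± 0.31 (edgeR adjusted p = 0.909), where 5.91% of 4602 genes were called. The ratio difference was then −0.23 ± 0.30 (edgeR adjusted p = 0.800), where 0.205% of genes were called. The listed Coa3 footprints lay only on codons 69 to 94 of 108, so the comparison on codons covers that stretch alone. Where in or around the gene the other reads lie was not tested.

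**Figure D3:**
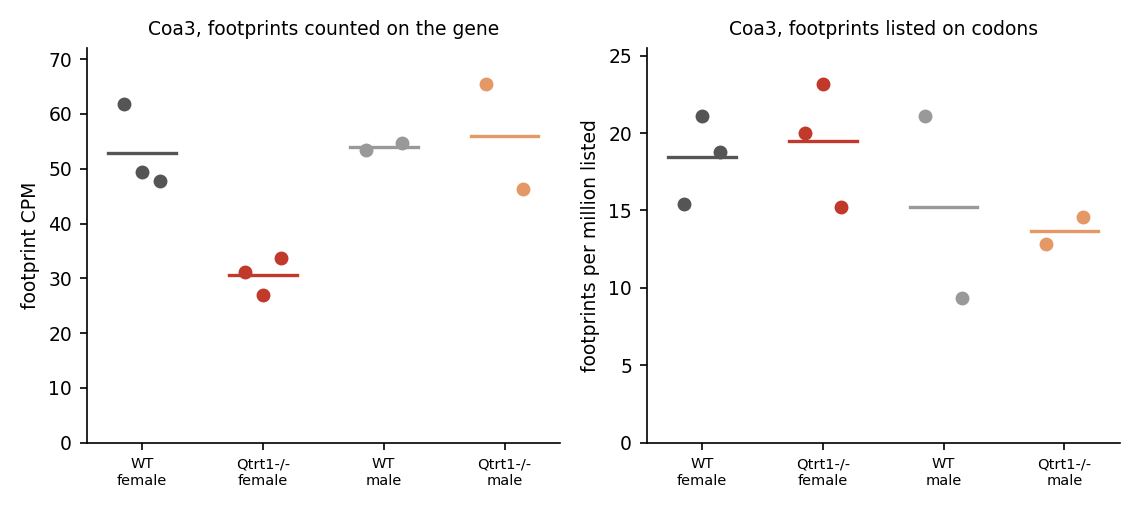
Coa3 footprints of each animal (points, with lines for group means) as counted on the gene (left, CPM) and as listed on codons (right, CPM of listed footprints). The listed codons lie between 69 and 94. Qtrt1-/- females lie below wild-type females on the left and overlap them on the right, 15.2 to 23.2 against 15.4 to 21.1 CPM.

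Leaving out 1 animal decided the Coa3 calls in several cases. The footprint difference was −0.68 without wild-type female 1, −0.82 without Qtrt1-/- female 1 and −0.73 without Qtrt1-/- female 2, with edgeR adjusted p of 0.0633, 0.0612 and 0.0558. The input call was lost without wild-type female 1 or 3 or Qtrt1-/- female 1 or 2 (0.31 to 0.41, edgeR adjusted p up to 0.105). The ratio call was lost without wild-type female 1 or 2 or Qtrt1-/- female 1 or 2 (−1.18 to −1.01, edgeR adjusted p up to 0.209). Without wild-type females 1 and 2 together, the animals lowest in choroid plexus markers, the footprint difference was −0.65 (edgeR adjusted p = 0.170). Without wild-type females 1 and 3 and Qtrt1-/- female 2, the females highest in striatum markers, it was −0.61 (edgeR adjusted p = 0.543). Among females all 16 choroid plexus markers (1 called) and all 12 meningeal markers (5 called) were higher in Qtrt1-/- footprints, and all 14 striatum markers lower (4 called). Their part in the Coa3 result was otherwise not tested.

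Cox14, the partner that binds core subunit 1 together with Coa3, did not follow it. Its female footprint levels were 31.2, 30.4 and 33.9 CPM in wild type and 30.4, 31.8 and 32.4 CPM in Qtrt1-/- animals, which overlap. The difference was −0.04 ± 0.12, and that of the ratio was −0.11 ± 0.14, neither called by edgeR.

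Cox20 guides newly made core subunit 2 towards copper insertion. In wild-type females 34, 41 and 24 footprints were counted, and in Qtrt1-/- females 113, 126 and 91, which is 5.55, 7.70 and 3.60 CPM against 14.7, 17.5 and 11.1 CPM. The groups did not overlap. Input counts were 99, 75 and 85 against 120, 113 and 94, levels of 5.83 to 7.02 CPM against 7.01 to 9.11 CPM that just overlapped. Footprints rose 2.56-fold, a log2 difference of 1.36 ± 0.27 (edgeR adjusted p = 0.0148), and the input difference was 0.30 ± 0.14 (edgeR adjusted p = 0.261).

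The Cox20 ratio was −0.33, 0.39 and −0.82 in wild-type females and 0.68, 1.12 and 0.65 in Qtrt1-/- females. Its difference was 1.07 ± 0.32 and was not called (edgeR adjusted p = 0.184). With the animal as a block, which pairs each footprint library with its own input, it was 1.08 and was called (edgeR adjusted p = 0.0328). The footprint call was lost without wild-type female 1, Qtrt1-/- female 1 or Qtrt1-/- female 2, with edgeR adjusted p of 0.0641, 0.0662 and 0.0618. It was 1.98 (edgeR adjusted p = 0.0399) without wild-type females 1 and 2, and 0.73 (edgeR adjusted p = 0.627) without the 3 females highest in striatum markers. Hnrnpu, the gene on the opposite strand, had a female footprint difference of 0.01 ± 0.10. The codon tables list neither Cox20 nor Cox17, so their footprint differences could not be compared with codon footprints.

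Cox17, the copper carrier that supplies both copper sites of the enzyme, had very few footprints. The counts were 6, 3 and 10 in wild-type females and 27, 24 and 22 in Qtrt1-/- females, while input counts stayed between 92 and 95 in wild type and between 93 and 109 in Qtrt1-/- animals. In CPM the footprints were 0.98, 0.56 and 1.5 against 3.51, 3.34 and 2.68, with no overlap. Its footprint difference, 1.57 ± 0.49, was the largest of the 10 genes but was not called (edgeR adjusted p = 0.0681), nor was that of its ratio, 1.54 ± 0.45 (edgeR adjusted p = 0.178). The footprint difference was called in a fit of the female libraries alone (edgeR adjusted p = 0.0214) and without a filter on low counts (edgeR adjusted p = 0.0302). Without wild-type male 1 or 2, which leaves 1 animal in that group, it stayed at 1.57. The difference was not called by DESeq2's Wald test, with DESeq2's size factors, with the replicate block or without any 1 female. It was 1.06 without wild-type females 1 and 2 and 2.42 without the 3 females highest in striatum markers, with edgeR adjusted p of 0.515 and 0.569.

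The other copper factors showed no such difference. Female footprint differences were −0.00 ± 0.16 for Cox11, which inserts copper into core subunit 1, −0.20 ± 0.27 for Coa6, which acts in copper delivery to core subunit 2, and −0.25 ± 0.32 for Cox16, a partner in core subunit 2 maturation. Over all 10 animals footprints ranged from 17.7 to 28.4 CPM for Cox11, from 6.39 to 16.3 CPM for Coa6 and from 1.59 to 4.09 CPM for Cox16. Input ranged from 14.7 to 20.6, from 9.08 to 14.8 and from 2.98 to 6.08 CPM. None was called by edgeR, and their female groups overlapped in footprints, input and ratio.

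Cox10, which makes the precursor of heme A, had 26.4 to 28.1 footprint CPM in wild-type females and 23.2 to 27.3 CPM in Qtrt1-/- females, a difference of −0.14 ± 0.13 that edgeR did not call. Coa5, an assembly factor with a CX9C pattern, differed by 0.14 ± 0.25 and Coa7 by −0.21 ± 0.28, also not called. Coa5 held 3.83 to 6.87 footprint CPM over 17.3 to 24.9 input CPM across the 10 animals, and Coa7 held 3.07 to 6.70 footprint CPM. Coa7 input was 4.04, 5.20 and 5.65 CPM in wild type against 3.79, 3.73 and 3.80 CPM in Qtrt1-/- females, without overlap. That difference, −0.40 ± 0.18, was not called (edgeR adjusted p = 0.237). In males Coa7 input was 5.14 and 4.79 CPM in wild type against 3.47 and 4.25 CPM in Qtrt1-/- animals, also without overlap and not called.

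**Figure D4:**
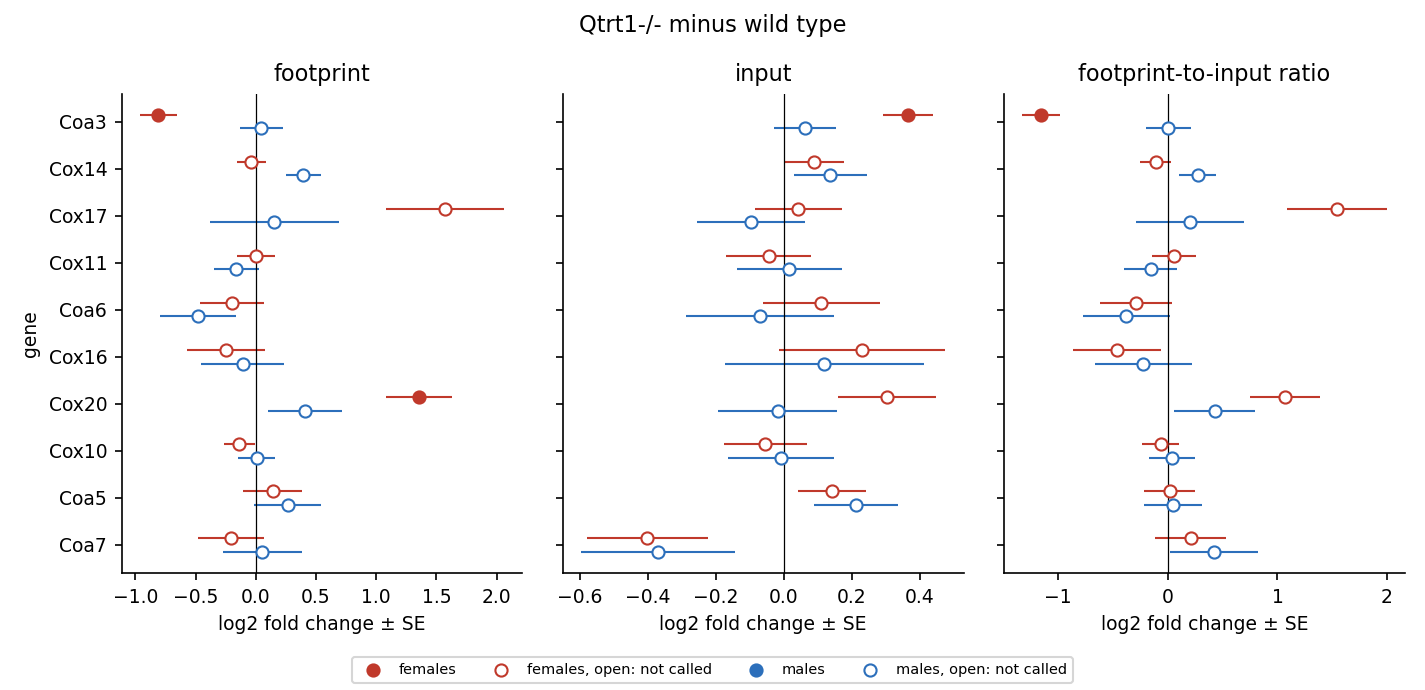
Log2 fold change of Qtrt1-/- against wild type (horizontal axes, ± SE) for each of the 10 genes in footprints, input and footprint-to-input ratio, in females (red) and males (blue), filled where called. Coa3 is filled in all 3 female panels and Cox20 in female footprints, and no male value is filled.

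The second question was the same contrast in males, with 2 animals a genotype. No member was called by edgeR in male footprints, input or ratio, where 0%, 0% and 0% of all genes were called, and DESeq2 called none of the 10 either. At an unadjusted p under 0.05 there were 1, 0 and 0 members, and 562, 1246 and 367 of all genes. Coa3 footprints were 53.4 and 54.6 CPM in wild-type males and 65.5 and 46.3 CPM in Qtrt1-/- males, and the difference was 0.05 ± 0.18. Its male input levels, 53.3 and 54.2 against 55.8 and 56.4 CPM, stood near those of the Qtrt1-/- females.

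Cox20 footprints were 10.5 and 6.13 CPM in wild-type males and 10.6 and 12.6 CPM in Qtrt1-/- males, a difference of 0.41 ± 0.31 that was not called. These groups did not overlap, nor did those of the Cox20 ratio, 0.10 and −0.48 against 0.17 and 0.51. Cox17 had 44 and 3 footprints in wild-type males and 20 and 10 in Qtrt1-/- males, so the wild-type males lay far apart, at 2.95 and 0.575 CPM. For Cox14, the 1 member at an unadjusted p under 0.05, male footprints were 40.5 and 37.9 CPM in wild type and 46.2 and 58.2 CPM in Qtrt1-/- animals. The difference was 0.40 ± 0.15 (edgeR adjusted p = 0.963).

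Whether the female difference differed from the male one was tested itself. No member was called in footprints, input or ratio, where 0%, 0% and 0% of all genes were called by edgeR. DESeq2 called none of the 10, and 3, 1 and 1 members had an unadjusted p under 0.05, as did 1109, 1339 and 409 of all genes. For Coa3 the female difference minus the male one was −0.86 ± 0.24 in footprints (edgeR adjusted p = 0.348) and −1.16 ± 0.27 in the ratio (edgeR adjusted p = 1.00). For Cox20 it was 0.95 ± 0.41 and for Cox17 1.42 ± 0.73 in footprints, both not called. A dependence on sex was thus not shown for any member, and equal effects were not shown either.

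Over both sexes, no member was called in footprints, where 0.00761% of all genes, 1 gene, were called, in input (0.734% of all genes called) or in the ratio (0% called). Unadjusted p was under 0.05 for 3 members in each, and for 2576 of 13143 genes in footprints, 2497 of 14164 in input and 1458 of 14146 in the ratio. Cox20 footprints differed by 0.88 ± 0.21 (edgeR adjusted p = 0.0638), which DESeq2 called (adjusted p = 0.00861). The Coa3 ratio differed by −0.58 ± 0.13 (edgeR adjusted p = 0.206), and was called with the animal as a block (edgeR adjusted p = 0.0218) and by DESeq2 (adjusted p = 0.0174). In input 0 members were called by DESeq2.

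Males were then set against females over both genotypes, a contrast in which age differed as well. In footprints 2 of 10 members were called, both higher in males, where 29.9% of all genes were called: Cox14 by 0.51 ± 0.09 (edgeR adjusted p = 0.00170) and Coa3 by 0.45 ± 0.12 (edgeR adjusted p = 0.0120). In input 3 of 10 were called, all higher in males, where 20.1% of all genes were called: Cox14 by 0.44 ± 0.07, Coa3 by 0.23 ± 0.06 and Cox20 by 0.35 ± 0.11 (edgeR adjusted p of 0.00147, 0.0179 and 0.0475). In the ratio 0 members were called by edgeR or DESeq2 and 0 had an unadjusted p under 0.05, where 7.73% of all genes were called. The Cox20 call was lost in 9 of 10 fits that left out 1 animal, with edgeR adjusted p up to 0.152, and in all 5 other alternatives run for it, among them DESeq2 and no filter on low counts. The Coa3 footprint call was lost without Qtrt1-/- male 1 (0.31, edgeR adjusted p = 0.0929), and its input call without Qtrt1-/- male 1 or 2 (edgeR adjusted p of 0.0588 and 0.0621). With codon footprints in place of gene counts, 2 of 5 listed members were called in footprints, both higher in males, where 22% of genes were called. They were Cox11 by 1.18 (edgeR adjusted p = 0.00409), against 0.22 and not called from gene counts, and Cox14 by 0.38 (edgeR adjusted p = 0.0456). Coa3 was then −0.36 and not called. In the ratio 1 of the 5 was called, Cox11 by 1.09 (edgeR adjusted p = 0.0134), where 2.43% of genes were called. Cox14 was thus higher in males in both kinds of library, by a like amount, and its male and female input levels, 23.9 to 27.2 against 17.1 to 20.6 CPM, did not overlap. Markers of several cell types differed as well in footprints between the sexes. All 14 striatum markers were lower in males (11 called, median −1.20), and all 16 choroid plexus markers (4 called) and all 8 oligodendrocyte markers (5 called) were higher. Of 13 hippocampal neuron markers 12 were higher (6 called). In input 12 of the 14 striatum markers were called lower. Their part in the differences between the sexes was not tested.

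Other genes of the enzyme were followed beside the 10. Of 21 other assembly factors tested in female footprints, 0 were called by edgeR or DESeq2 (2 at an unadjusted p under 0.05), and 22 gave 0 calls by either tool in input and in the ratio (4 and 2 at an unadjusted p under 0.05). Of 12 nuclear-encoded subunits, 1 was called in female footprints and 1 in the ratio, in both cases Cox5b, a structural subunit. Its footprints differed by −0.80 ± 0.16 and its ratio by −0.95 ± 0.17 (edgeR adjusted p of 0.0148 and 0.0485). The codon tables held 0.327% of its gene count. Of 18 complex I assembly factors 0 were called by edgeR or DESeq2 in female footprints, input or ratio (5, 3 and 4 at an unadjusted p under 0.05). For 15 assembly factors of complexes II, III and V, 14 of them tested in footprints, the calls by both tools were also 0 (0, 3 and 0 at an unadjusted p under 0.05). Of all genes, edgeR called 7.06% in female footprints, 3.48% in input and 0.0424% in the ratio. Its unadjusted p was under 0.05 for 3367 of 13143, 2851 of 14164 and 1787 of 14146 genes.

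Codon tables listed 5 of the 10 genes, Coa3, Coa5, Cox10, Cox11 and Cox14, and these values are descriptions. The codons they name equalled those of the GENCODE M21 transcripts in 99.9% of entries when counted from 0 at the start codon. Which site of the ribosome a listed codon marks was not given in the sources used here. Listed footprints over 10 libraries were most in Cox10 and Cox14, 1616 and 1560, and few in Coa3 (275), Cox11 (224) and Coa5 (174). These are totals, not counts per codon.

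On Cox14, 1 codon held more footprints than any other in all 10 libraries: codon 16, a GCC alanine codon that is not read by a queuosine tRNA. It held 21.9%, 22.0% and 31.7% of the listed footprints in wild-type females and 45.9%, 45.1% and 38.7% in Qtrt1-/- females, without overlap. In wild-type males the shares were 24.8% and 27.6%, and in Qtrt1-/- males 23.4% and 41.6%, which overlap. Shares on codons 46 to 50 were lower in the summed Qtrt1-/- libraries, for example 7.04% against 10.7% at codon 46. Codons 18 and 19 had higher shares there, 2.84% against 0.8% and 7.41% against 2.13%. Codon 17 was nearly level, 6.05% against 6.4%. These sums join both sexes and give no spread between animals. Wild-type male 1 gave 318 of the wild-type footprints, and the other wild-type animals 98 to 120 each. Shares are parts of a whole, so a rise at some codons lowers the shares of others. None of the listed Cox14 footprints lay on a codon read by a queuosine tRNA. The tables start at codon 15, just before it. This codon was picked after its values were seen, and no test was made.

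**Figure D5:**
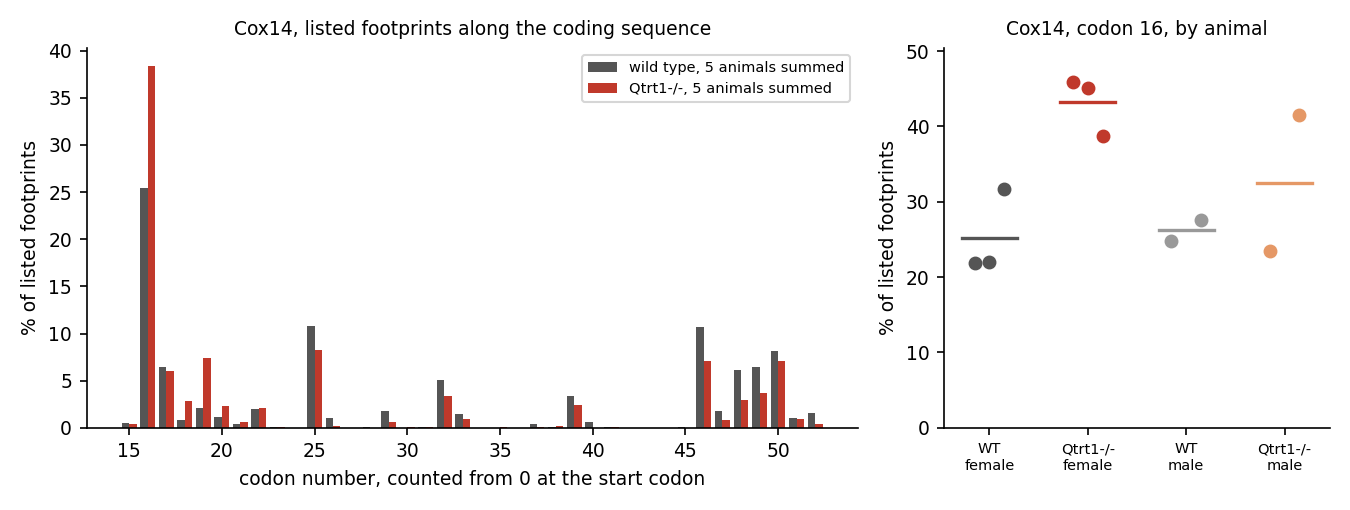
Left, share of the listed Cox14 footprints (vertical axis, %) at each codon of the coding sequence, counted from 0 at the start codon, summed over 5 wild-type and 5 Qtrt1-/- libraries. Right, the share at codon 16 in each animal (points; lines are group means), 21.9 to 31.7% in wild-type females and 38.7 to 45.9% in Qtrt1-/- females.

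On Cox10, codons read by queuosine tRNAs held 5.98%, 6.78% and 8.80% of the listed footprints in wild-type females and 9.52%, 11.1% and 12.6% in Qtrt1-/- females, again without overlap. They rest on 7, 8 and 11 footprints against 14, 17 and 22. In males the shares overlapped, 7.64% and 10.3% in wild type against 13.3% and 7.64% in Qtrt1-/- animals. Such codons make up 10.8% of the whole Cox10 sequence of 443 codons, whereas the listed footprints lay only on codons 163 to 438. In Coa5 the order was the reverse, 25.0%, 12.5% and 10.5% against 5.26%, 5.00% and 5.00% in females, on 1 or 2 footprints per library. In Coa3 the female groups overlapped, 0%, 4.17% and 11.1% against 0%, 5.71% and 15.4%, on 0 to 4 footprints per library. In Cox11 they also overlapped, 0%, 10.0% and 9.09% against 0%, 0% and 5.00%, on 0 or 1 footprint. Male Cox11 shares were 4.62% and 7.69% in wild type and 24.2% and 15.0% in Qtrt1-/- animals, on 3 and 2 footprints against 8 and 3.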

How the data were processed

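Ribosome footprints and input RNA were sequenced from 10 mouse hippocampi. The authors deposited a table of read counts per gene, used as raw counts, and per footprint library a table that gives for each codon a coverage count, a ratio to the mean of its mRNA and the percent of the coding sequence covered. Per the submitters' processing notes, SAMtools 0.1.19, Bowtie 1.2.2 and 1.0.0, cutadapt 1.8.1 and Trimmomatic 0.39 were used, with no role stated. The genome build and counting tool were not given in the sources used here. Per the labels' protocols, lysates held cycloheximide, footprints were made with RNase I and size-selected, and input RNA was depleted of rRNA, so the drug can bear on where footprints lie.

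CPM and log2 values were computed here from the deposited counts with TMM library sizes (edgeR 4.0.16, limma 3.58.1, R 4.3.3; prior count 2). Footprint and input libraries were fitted separately, 10 libraries each, by edgeR's quasi-likelihood test on the means of 4 groups of sex and genotype, after its filter on low counts. All 10 genes passed the filter in each fit. The ratio was tested as the interaction of library kind with the contrast over 20 libraries. The deposited ratio was not tested. An SE is the absolute log2 fold change divided by the square root of F. DESeq2 1.42.0 was an alternative, and figures were drawn with matplotlib 3.10.9. The edgeR test of female footprints was also run on simulated footprint counts, with the same setting of the spread for all genes. Input libraries, ratios and differences in tissue make-up were not simulated. Animals are the replicates, and the tests set a difference against the spread between libraries of a group. The main ratio fit took its 20 libraries as independent, although footprint and input libraries come from the same animals.

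Footprint and input libraries of an animal come from 1 lysate per the labels, and their deviations from the group means correlated at 0.22 to 0.48. For ratios the fit with the animal as a block is therefore given beside a result where it changed a call. Members and gene lists were chosen with earlier results of these data known. All members are named, others by a rule: at most 3 genes per list and comparison with the lowest adjusted p under 0.05. Tables of codon enrichment over all mRNAs were not used here. Footprints were counted as PCR-amplified reads, so a count by itself, as on codons, covers counting error only. The tests also take in the spread between libraries of a group.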

Additional observations from a re-analysis of the deposited data

How the results depend on the processing

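Alternatives were DESeq2's size factors or Wald test, no filter on low counts, a replicate block, fits on 1 sex, each animal left out, 2 sets of females left out, plain library totals, and, chosen after seeing the data, codon footprints in place of gene counts. Fits that left out 1 animal gave 0 to 3 called members in female footprints, 0 to 2 over both sexes, 0 to 1 in female input, 0 to 1 in the female ratio, 0 to 1 in the ratio over both sexes, 1 to 3 between the sexes in footprints and 1 to 3 in input. In groups left with 1 animal, that animal is assumed to vary like the other groups. Female footprints kept 1 called member without wild-type females 1 and 2 and 0 without the 3 females highest in striatum markers. Female input and ratio each had 0 in both cases, and males against females had 1 in footprints without those 3 and 1 in input without those 2. DESeq2 and the fit without a filter each called 1 member in footprints over both sexes, and DESeq2 called 1 in that ratio. Codon footprints called 0 in female footprints, where Coa3 changed sign to 0.071, 0 in the female ratio and 1 in the ratio between the sexes, Cox11 at 1.09. Cox11 was also called in codon footprints between the sexes, at 1.18, and Cox17 in female footprints without a filter, at 1.57. Between the sexes Coa3 changed sign to −0.36 in codon footprints. The cause was not tested.

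The replicate number as a block left 2 members called in female footprints and 0 in female input, where Coa3 was 0.36 (edgeR adjusted p = 0.0612). Genes called fell from 928 to 308 in female footprints. Correlations of same-numbered females were −0.21 to −0.12, and those of males −0.04 to 0.09. Same-numbered males share an age in the labels, and with the block 0 members were called in males. With the animal as a block, called members were 2 in the female ratio and 1 in the ratio over both sexes. It changed no other call of a member. Genes called in the female ratio ranged from 0 to 394 and in female footprints from 1 to 1849 over all alternatives. With 1 animal left out they ranged from 4 to 1030 in female input (493 with all animals), 1 to 1453 in footprints, 1 to 699 in input and 0 to 167 in the ratio over both sexes (1, 104 and 0), and between the sexes from 2277 to 4152 in footprints (3930), 1599 to 2926 in input (2843) and 185 to 2096 in the ratio (1093). Female minus male calls reached 10 in footprints and 40 in input, and male calls 15 in input and 1 in the ratio (each 0 with all animals). Plain library totals lowered the mean ratio of Cox14 to 0.57 and of Cox10 to 0.46. Low footprint counts limit Cox17 and Cox16 most.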

Other observations

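The subunits of cytochrome c oxidase that are encoded in the nucleus were followed between the sexes as well. Of 12 such subunits 7 were called higher in male footprints, 10 in input and 3 in the ratio, and none lower, by edgeR's quasi-likelihood test with Benjamini-Hochberg adjustment. Over all genes 29.9%, 20.1% and 7.73% were called in these comparisons. Of the 10 assembly factors described above these counts were 2, 3 and 0, and no test was made of the difference between the lists. Cox8a and Cox6c, both small subunits of the enzyme's outer shell, had the lowest adjusted p in footprints, with differences of 0.89 and 1.05 on the log2 scale. Of 21 other assembly factors 3 were higher and 2 lower in male footprints, 23.8% in all and below the share of all genes, among them Surf1, a factor of heme insertion, higher by 0.59, and Lrpprc, which binds mitochondrial mRNAs, at −0.40. In input 6 of 22 were higher and 1 lower, 31.8% in all, and the lowest adjusted p was that of Slirp, the partner of Lrpprc, at 0.42. Sex and age cannot be told apart in these values.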
